A study of Rattus norvegicus with 11 samples.

Results

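The 38 genes described here are those whose symbol begins with Psma, Psmb, Psmc, Psmd, Psme, Psmf or Psmg on a rat expression array. The interferon-inducible forms Psmb8, Psmb9, Psmb10, Psme1 and Psme2 were left out. Of the array's 10411 genes with a single symbol, these 38 are represented by 41 probe sets, and where a gene had several, the brightest by mean log2(signal + 16) over the 11 arrays stands for it. By role, 13 encode the core particle (7 alpha and 6 beta ring subunits), 7 the base and 6 the lid of the regulatory particle. A further gene encodes the ubiquitin receptor Psmd4 between base and lid, 7 encode assembly chaperones, and Psme4 and Psmf1 encode an activator and an inhibitor. The last 2, Psmc3ip and Psme3ip1, share only the prefix. They encode binding partners of Psmc3 and Psme3. They form a class of their own, other genes, but are counted among the 38. Psma8, Psmb6, Psmb11, Psmc6, Psmd12, Psmd14 and Psme3 had no probe set with that single symbol and are not analysed here.

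The 26S proteasome degrades proteins tagged with ubiquitin. Its barrel-shaped core holds the proteolytic sites inside a pair of beta rings, capped by alpha rings that act as a gate. The regulatory particle binds to the alpha ring: the base unfolds substrates with a ring of ATPases, and the lid removes the ubiquitin chain. Dedicated chaperones build the alpha ring and the base and then leave, so they are not part of the finished particle.

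All samples were REF52, a cell line established from rat embryo fibroblasts, grown in 10% serum and then kept in 0.25% serum for 48 hours before infection. They received an adenovirus expressing E2F1, a transcription factor of S phase entry, or a control adenovirus labelled CMV. After infection the groups were E2F1 in serum and CMV in serum (2 arrays each), E2F1 and CMV in serum with the phosphoinositide 3-kinase inhibitor LY294002 (2 each), and E2F1 (2) and CMV (1) left in deprivation medium. The single deprived CMV array is assumed in the model to vary like the other groups. Nothing in the labels tells whether the arrays within a group represent separate cultures, and the p-values therefore measure array-to-array spread that may be technical. The arrays measured bulk RNA, in which fewer expressing cells and less RNA per cell cannot be told apart.

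Precision is limited by how few arrays there are. The array medians were 173 to 208 signal units, and pairs of arrays of a group correlated between 0.959 and 0.984 over probe sets. As a measure of RNA quality, the mean log2 signal of the 3' minus the 5' controls for beta-actin and GAPDH (the 3' to 5' difference) was 0.51 to 0.76 for the 3 deprived arrays, 0.90 for the second E2F1 array with LY294002 and 0.12 to 0.33 for the other 7. Of 13 fibroblast markers 9 lay above the array median on all 11 arrays, among them Col1a1, Vim and Fn1, while Thy1, Dcn and Lum lay below it on every array. Of 21 measured markers of other cell types, 16 lay below it on every array and Myh1 above it on every array. Syp lay above it on 10 arrays, Des on 7, Ckm on 2 and Gfap on 1. The summed signal was 81016 to 108173 on E2F1 arrays and 94179.6 to 131323 on CMV arrays for the fibroblast list, and 2067 to 3387 on E2F1 arrays against 2812 to 3724 on CMV arrays for the other list. The part of these markers in the results was not tested. The introduced gene itself was not measured, since E2f1 is not the single symbol of any probe set. The cyclin gene Ccne1, a known E2F target, had signals of 1550.4 to 3236 on the 6 E2F1 arrays and 141 to 332 on the 5 CMV arrays.

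Averaged over the 3 media, E2F1 changes that passed the test were found for 3 regulatory particle subunits (Psmc2, Psmd8 and Psmd13), 4 assembly chaperones (Psmg2, Psmg4, Psmd5 and Psmd10) and Psme3ip1, and for no core gene. Of the 38 genes 7 rose and 1 fell in limma's test (Benjamini-Hochberg adjusted p at or under 0.05 over all 15866 probe sets), 21.1% in all, where 16.5% of all probe sets were called. Without Psmc3ip and Psme3ip1, 6 of 36 rose and 1 fell, 19.4% in all. By direction, 9.23% of all probe sets were called higher and 7.25% lower. Shares of all probe sets, here and below, include dim ones, whereas the members were bright. With the dimmest 30% left out, the same 8 members were called. In that fit 3035 of the remaining probe sets were called, against 2615 of all 15866 in the main fit. The part of brightness in these shares was not tested. None of the 13 core genes was called, against 1 of 7 base genes, 2 of 6 lid genes and 4 of 7 chaperones. At an unadjusted p under 0.05 there was 1 core gene, beside 4894 of all 15866 probe sets. The core, base and lid together had 3 calls in 26 genes, or 11.5%, beside 16.5% of all probe sets. Median log2 changes were 0.05 for the core, 0.19 for the base, 0.21 for the lid and 0.09 for the chaperones, beside -0.04 for all probe sets. The base median rested on single arrays: it was 0.09 without the first CMV array with LY294002, 0.29 without the second and 0.12 without the first CMV array in serum. It was also 0.12 with Psmd4 counted in the base. By medium the base median was 0.08 in serum, 0.09 with LY294002 and 0.37 in deprivation, which has a single CMV array. The lid median was 0.18, 0.11 and 0.36 in the same order. The core median was 0.02 without the first E2F1 array with LY294002, 0.09 without the second, 0.03 without the first CMV array with LY294002, and 0.08 without the second CMV array in serum or the first deprived E2F1 array. Differences between the classes were not tested.

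**Figure D1:**
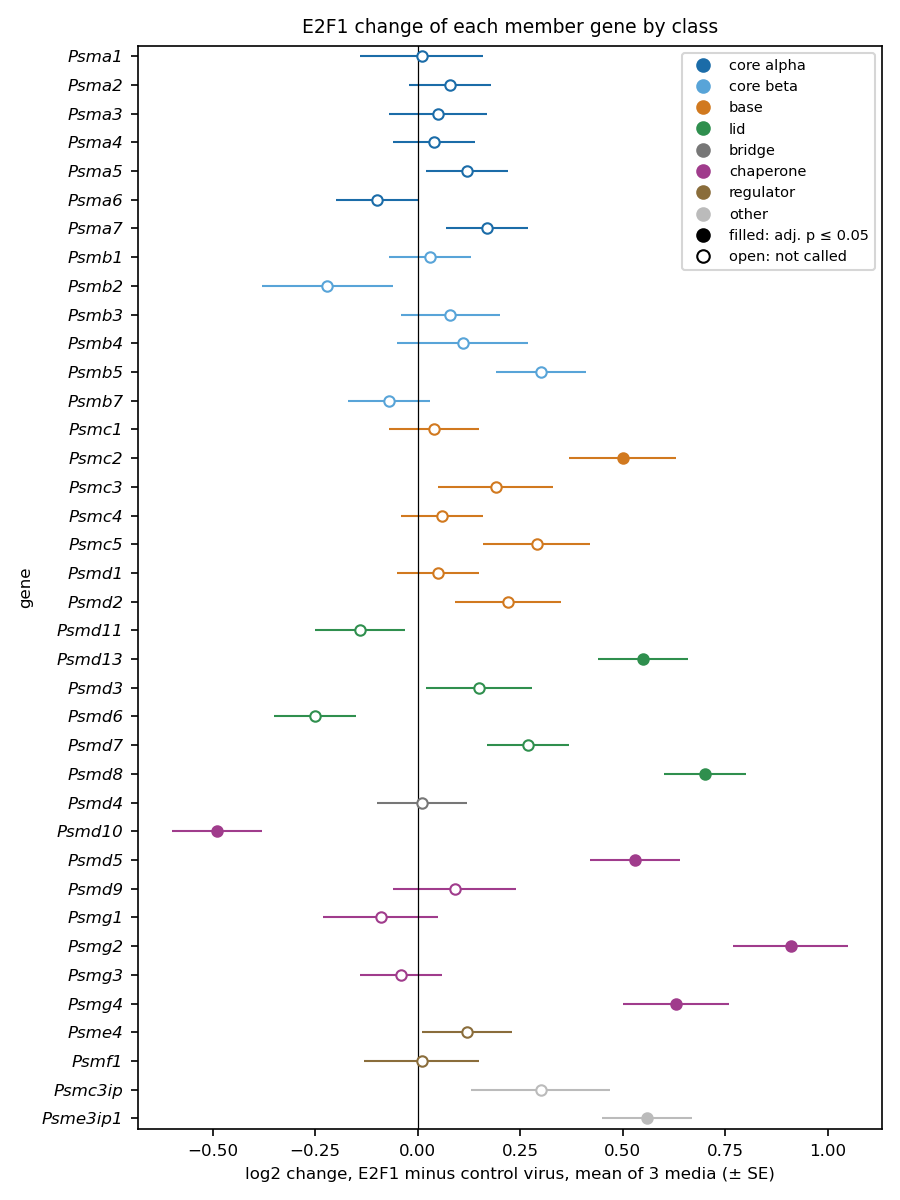
Log2 change (E2F1 minus control virus, mean of the 3 media) of each of the 38 genes, with its standard error from the limma fit, coloured by class and filled where the adjusted p is at or under 0.05. The 13 core genes lie between -0.22 and 0.30 and are all open, while the chaperones span -0.49 to 0.91.

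In the alpha ring, which forms the outer gate of the core, all 7 genes lay between -0.10 (Psma6) and 0.17 (Psma7), and their 95% intervals together span -0.34 to 0.40. Psma7 had signals of 2761 and 2826 in E2F1 cells against 2858 and 2981 in CMV cells in serum, 3340.3 and 3758 against 2459.9 and 2734 with LY294002, and 2945 and 2815 against 2620.4 in deprivation. Its E2F1 arrays were thus lower in serum and higher in the other media (average 0.17 ± 0.10, SE, adjusted p = 0.279). Psma5 averaged 0.12 ± 0.10 (adjusted p = 0.476), with signals of 2261 to 2652 on E2F1 arrays and 2088 to 2439.6 on CMV arrays. Of the alpha ring genes, 6 of 7 lay above 0, and the E2F1 and CMV signals overlapped for each of the 7.

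In the beta ring, Psmb5, which carries the chymotrypsin-like site, gave 6150.4 and 6139.6 in E2F1 cells against 4627 and 5173 in CMV cells in serum. With LY294002 it gave 6393 and 5836 against 4692 and 5444, and in deprivation 4979.9 and 5952 against 4465. E2F1 arrays lay above CMV arrays within each medium, but the change did not pass the test (0.30 ± 0.11, adjusted p = 0.106, 95% interval 0.04 to 0.55). Psmb7, which carries the trypsin-like site, averaged -0.07 ± 0.10 (adjusted p = 0.723), with 3282 to 4462 on E2F1 arrays and 3627 to 4571 on CMV arrays. Psmb2, a structural beta subunit, had 1099 and 1484 in E2F1 cells against 2196 and 2567 in CMV cells in serum. With LY294002 these values were 2281 and 1458 against 1949 and 1712, and in deprivation 1798 and 1907 against 1587. The lower E2F1 signal of Psmb2 thus appeared in serum (-0.89 ± 0.25, adjusted p = 0.16) and not in deprivation (0.22 ± 0.31, adjusted p = 0.734), and limma's test of the difference between these media did not pass (1.11 ± 0.40, adjusted p = 0.457). The remaining beta genes, Psmb1, Psmb3 and Psmb4, averaged 0.03 to 0.11.

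All 7 base genes lay above 0 in the average, and 1 passed the test. Psmc2, an ATPase of the unfolding ring, gave 4219.7 and 3878 in E2F1 cells against 2673 and 3873 in CMV cells in serum, 4169 and 4487 against 2661 and 3269.7 with LY294002, and 3932 and 3875 against 2525 in deprivation. It rose 1.42-fold (0.50 ± 0.13, adjusted p = 0.0389). The lowest E2F1 signal stood just above the highest CMV signal, and the call was lost in 12 of 21 alternative settings (adjusted p 0.0182 to 0.169). Among these were centring on array medians (adjusted p = 0.075) and leaving out either E2F1 array in serum, the first CMV array in serum, the second E2F1 or first CMV array with LY294002, or either deprived E2F1 array (adjusted p = 0.0678 to 0.0988). The other 4 ATPase genes measured were Psmc5 (0.29 ± 0.13, adjusted p = 0.175), Psmc3 (0.19 ± 0.14), Psmc4 (0.06 ± 0.10) and Psmc1 (0.04 ± 0.11). Psmc3 varied most among the base genes, with signals of 1615 to 2788 on E2F1 arrays and 1198 to 3294 on CMV arrays. The scaffold subunits Psmd2, which also binds ubiquitin shuttle factors, and Psmd1 averaged 0.22 ± 0.13 (adjusted p = 0.302) and 0.05 ± 0.10 (adjusted p = 0.764). The ubiquitin receptor Psmd4 averaged 0.01 ± 0.11 (adjusted p = 0.953, 95% interval -0.23 to 0.26).

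The lid held the largest change of the particle's own subunits. Psmd8, a lid scaffold subunit, gave 2923 and 2676 in E2F1 cells against 2093 and 2073 in CMV cells in serum, 3255 and 2899 against 1803 and 2126 with LY294002, and 2141 and 2146 against 1047 in deprivation. The 6 E2F1 arrays all lay above the 5 CMV arrays, the closest being 2141 for deprived E2F1 and 2126 for CMV with LY294002, and the gene rose 1.62-fold (0.70 ± 0.10, adjusted p = 0.0043). Psmd13, another lid scaffold subunit, gave 1397 and 1220.1 in E2F1 cells against 1035 and 1179 in CMV cells in serum, 1356 and 1400.3 against 823 and 978 with LY294002, and 1433 and 1326 against 781 in deprivation. It rose 1.47-fold (0.55 ± 0.11, adjusted p = 0.012) with no overlap between the viruses. Psmd7, the partner of the lid's deubiquitinase, had 1645 to 1980.1 on E2F1 arrays and 1227 to 1574 on CMV arrays. It did not pass the test (0.27 ± 0.10, adjusted p = 0.102), although its signals did not overlap. Psmd6 leaned the other way, with E2F1 arrays below CMV arrays within each medium (-0.25 ± 0.10, adjusted p = 0.153). Psmd3 and Psmd11 averaged 0.15 ± 0.13 and -0.14 ± 0.11, and a second, dimmer Psmd11 probe set gave 0.05 ± 0.12.

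Over all members, 6 genes (15.8%) had each of the 6 E2F1 arrays above each of the 5 CMV arrays, against 6.05% of all probe sets: Psmc2, Psmd7, Psmd8, Psmd13, Psmg2 and Psme3ip1. Without Psmc3ip and Psme3ip1 the share was 5 of 36 (13.9%). None of the 38 had all E2F1 arrays below, against 3.59% of all probe sets. Within each medium separately, 9 of 38 had E2F1 above CMV in all 3 media (10% of all probe sets), which adds Psmb5, Psmd5 and Psmg4 to these 6. Psmd6 and Psmd10 had E2F1 below CMV in all 3 (8.97%). These shares of all probe sets also include dim ones, and the members were bright. Shares among bright probe sets alone were not computed, so the part of brightness was not tested.

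**Figure D2:**
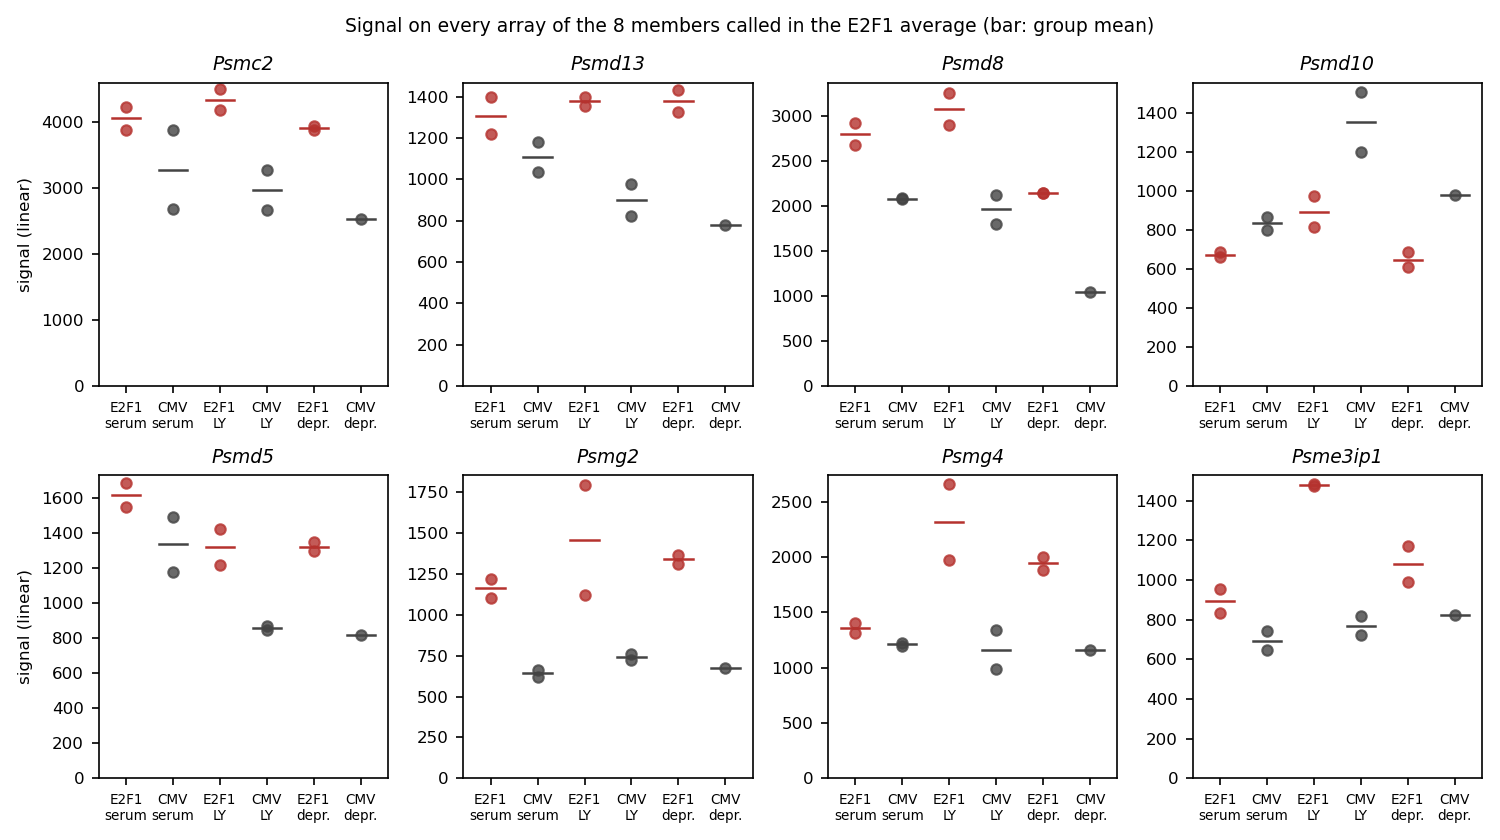
Linear signal on each array of the 8 genes called in the average over media, by virus and medium (red E2F1, grey CMV), with a bar at each group mean. All E2F1 arrays lie above all CMV arrays for Psmg2 (1103 or more against 758 or less) and, by narrower margins, for Psmd8, Psmd13, Psmc2 and Psme3ip1, and Psmd10 is lower on the E2F1 arrays of each medium.

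Among assembly chaperones, 3 rose and 1 fell. Psmg2, which pairs with Psmg1 to build the alpha ring, gave 1221 and 1103 in E2F1 cells against 621 and 664 in CMV cells in serum, 1121 and 1794 against 758 and 721 with LY294002, and 1364 and 1312 against 674 in deprivation. It rose 1.88-fold (0.91 ± 0.14, adjusted p = 0.0052), the largest change of the 38 genes in this average, with no overlap. Its partner Psmg1 averaged -0.09 ± 0.14 (adjusted p = 0.728, 95% interval -0.42 to 0.24), with 539 to 896 on E2F1 arrays and 539 to 959 on CMV arrays. Psmg4 and Psmg3 form the second such pair. Psmg4 gave 1399 and 1312 in E2F1 cells against 1199 and 1219 in CMV cells in serum, 1970.0 and 2654 against 983 and 1341 with LY294002, and 1883 and 2002 against 1156 in deprivation. It rose 1.55-fold (0.63 ± 0.13, adjusted p = 0.0167). The call was lost without the first E2F1 array in serum (adjusted p = 0.0502), without the first CMV array in serum (adjusted p = 0.0503) and without deprived arrays (adjusted p = 0.0914). Psmg3 averaged -0.04 ± 0.10 (adjusted p = 0.826, 95% interval -0.29 to 0.20). Whether the partners of a pair differed was not tested.

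Chaperones of the base moved both ways. Psmd5 gave 1547 and 1685 in E2F1 cells against 1177 and 1491 in CMV cells in serum, 1422 and 1219 against 868 and 847 with LY294002, and 1295 and 1348 against 816 in deprivation. It rose 1.44-fold (0.53 ± 0.11, adjusted p = 0.017), with E2F1 above CMV inside each medium but overlap across media. The call was lost without the second deprived E2F1 array (adjusted p = 0.051) and without all deprived arrays (adjusted p = 0.111). Psmd10, known as gankyrin and as a binding partner of the retinoblastoma protein, gave 686 and 661 in E2F1 cells against 869 and 803 in CMV cells in serum. With LY294002 it gave 974 and 814 against 1202 and 1509, and in deprivation 609 and 685 against 980.0. It fell by 0.49 on the log2 scale (SE 0.11, adjusted p = 0.0241), and the call was lost without any one array of either serum group or of deprived E2F1 cells (adjusted p = 0.0502 to 0.0758), and without the deprived arrays altogether (adjusted p = 0.112). Psmd9, the remaining base chaperone, averaged 0.09 ± 0.15 (adjusted p = 0.745).

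The activator Psme4 averaged 0.12 ± 0.11 (adjusted p = 0.55), with 808 to 1443 on E2F1 arrays and 789 to 1195 on CMV arrays. Another Psme4 probe set gave 0.07 ± 0.20, and the dimmest gave -0.46 ± 0.16 (adjusted p = 0.0977), of the other sign. The inhibitor Psmf1 averaged 0.01 ± 0.14 (adjusted p = 0.975). Psme3ip1, which binds the activator Psme3, gave 953 and 833 in E2F1 cells against 645 and 743 in CMV cells in serum, 1477 and 1487 against 721 and 819 with LY294002, and 992 and 1174 against 826 in deprivation. It rose 1.47-fold (0.56 ± 0.11, adjusted p = 0.0126) without overlap. Psmc3ip, a protein of meiotic recombination, averaged 0.30 ± 0.17 (adjusted p = 0.296).

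The count of 8 calls was sensitive to single arrays. It was 5 without the first E2F1 array in serum, without the first CMV array in serum or without the second deprived E2F1 array, and 2 (Psmg2 and Psme3ip1) when the 3 deprived arrays were left out, which also leaves fewer arrays. In that last fit the changes of the other 6 genes kept their direction, at 0.53 for Psmd8, 0.42 for Psmd13, 0.57 for Psmg4, 0.45 for Psmd5, 0.44 for Psmc2 and -0.45 for Psmd10. In a fit of all arrays that took each array's 3' to 5' difference into account as a covariate, the 8 calls were kept and Psmc5 was added.

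Promoters of the 3 proteasome genes with the smallest p among those that rose, and of Psmd10, which fell, are given as examples. Each sequence is the 250 bases before the RefSeq start on assembly GRCr8, 5′ to 3′ on the gene's strand. Capitals mark matches on either strand to TGACNNNGC, the antioxidant response element bound by the proteasome regulator Nfe2l1, to CCAAT, the box bound by NF-Y, or to TTTNNCGC, an E2F-like site. No pair of matches overlapped in these 4 promoters.
Psmd8 (chr1:93608690-93608939, minus strand): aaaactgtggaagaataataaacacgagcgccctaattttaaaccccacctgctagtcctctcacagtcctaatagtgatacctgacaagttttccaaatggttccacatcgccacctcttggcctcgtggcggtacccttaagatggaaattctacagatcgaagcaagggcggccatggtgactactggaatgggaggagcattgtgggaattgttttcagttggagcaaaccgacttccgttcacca
Psmg2 (chr18:63478370-63478619, plus strand): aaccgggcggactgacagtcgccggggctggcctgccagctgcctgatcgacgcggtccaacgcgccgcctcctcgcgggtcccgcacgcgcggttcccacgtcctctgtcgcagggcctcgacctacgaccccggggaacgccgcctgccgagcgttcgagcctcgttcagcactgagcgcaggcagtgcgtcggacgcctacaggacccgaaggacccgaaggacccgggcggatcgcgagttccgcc
Psmd13 (chr1:205393998-205394247, plus strand): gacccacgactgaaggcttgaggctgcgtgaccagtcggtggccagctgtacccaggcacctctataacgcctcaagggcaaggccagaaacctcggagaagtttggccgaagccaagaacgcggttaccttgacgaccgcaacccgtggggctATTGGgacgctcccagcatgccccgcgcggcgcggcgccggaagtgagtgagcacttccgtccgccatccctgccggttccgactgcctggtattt
Psmd10 (chrX:109453606-109453855, minus strand): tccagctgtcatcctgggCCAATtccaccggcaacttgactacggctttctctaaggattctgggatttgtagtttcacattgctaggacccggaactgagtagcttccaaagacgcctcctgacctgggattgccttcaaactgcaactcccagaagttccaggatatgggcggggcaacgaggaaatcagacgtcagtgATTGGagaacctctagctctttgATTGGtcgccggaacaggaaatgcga

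In these windows Psmd8 and Psmg2 held no match, Psmd13 held 1 CCAAT box, read on the minus strand as ATTGG, and Psmd10 held 3. Of the other genes that rose, Psme3ip1 also held 3 CCAAT boxes, and Psmc2, Psmd5 and Psmg4 held 0. The printed promoters therefore do not separate genes that rose from the gene that fell. Promoters were matched for 36 of 38 members. CCAAT was present in 20 of the 36 (55.6%), against 35% of 21851 promoters of protein-coding genes, and by class in 9 of 12 core, 2 of 7 base, 2 of 5 lid and 3 of 7 chaperone promoters. TGACNNNGC was present in 6 of 36 (16.7%, against 10.5%), and TTTNNCGC in 2 of 36 (5.56%, against 4.92%), Psma1 and Psmc4. These matches describe letters in a window and not factor binding.

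By medium, E2F1 calls among the members were few. In serum limma called 0 of 38, where 0.353% of all probe sets were called (0.29% higher and 0.063% lower). At an unadjusted p under 0.05 there were 4 members, beside 2465 of all 15866 probe sets. The smallest p among the members was that of Psmg2 (0.84 ± 0.23, adjusted p = 0.143). With LY294002, Psme3ip1 (0.93 ± 0.18, adjusted p = 0.0286) and Psmg4 (0.98 ± 0.21, adjusted p = 0.0411) rose. These were 2 of 38 or 5.26% (without Psmc3ip and Psme3ip1, 1 of 36 or 2.78%). Of all probe sets 5.41% were called (3.78% higher and 1.63% lower). Both calls were lost without the second E2F1 array with LY294002, whose 3' to 5' difference was 0.90, without either CMV array with LY294002, without either CMV array in serum and without either deprived E2F1 array. Psmg4 alone was lost without either E2F1 array in serum. In deprivation Psmd8 rose 2.03-fold (1.02 ± 0.20, adjusted p = 0.0431), 1 of 38 or 2.63%, where 2.87% of all probe sets were called (2.19% higher and 0.681% lower). That call was lost without any 1 of the serum arrays or of the deprived E2F1 arrays.

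Class medians also varied with the medium. For the base the median E2F1 change was 0.08 in serum, 0.09 with LY294002 and 0.37 in deprivation, and for the lid it was 0.18, 0.11 and 0.36. For the core it was 0.04, 0.04 and 0.10. All probe sets had medians of 0.06, -0.04 and -0.14. The deprivation values rest on the single CMV array, which had the lowest class medians of the 11 arrays: -0.15 for the core, -0.36 for the base, -0.36 for the lid and -0.41 for the chaperones, each relative to the genes' means over all arrays. Its 3' to 5' difference was 0.76, and the part of RNA quality in these values was not tested.

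**Figure D3:**
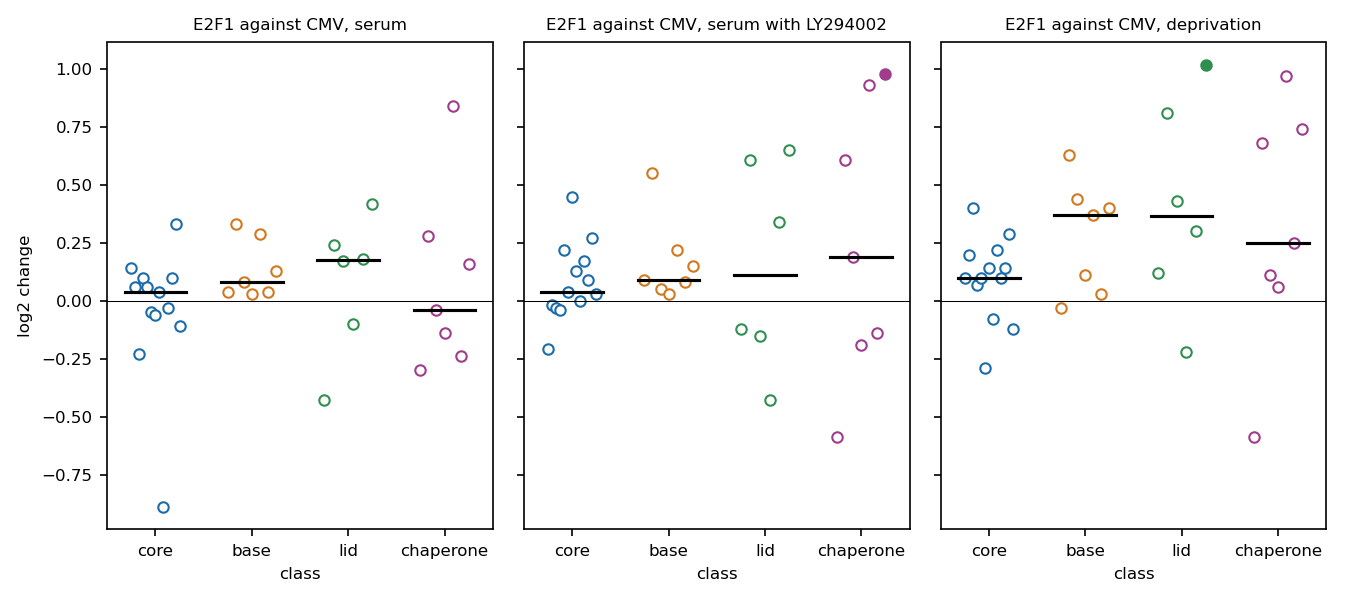
Log2 change with E2F1 in each medium for core, base, lid and chaperone genes; points are genes, filled where the adjusted p is at or under 0.05, and bars are class medians. Base and lid medians are 0.37 and 0.36 in deprivation, against 0.08 and 0.18 in serum.

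The tests of the difference between media called 0 of 38 members, for LY294002 minus serum as for deprivation minus serum, where 0% of all probe sets were called in both. At an unadjusted p under 0.05 there were 4 members for LY294002 minus serum, beside 998 of all 15866 probe sets. For deprivation minus serum there were 2, beside 1542 of all probe sets. The smallest p values among the members were those of Psmg4 for LY294002 (0.82 ± 0.30, adjusted p = 0.759) and Psmb2 for deprivation (1.11 ± 0.40).

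LY294002 itself called 0 of 38 members and 0% of all probe sets in limma, in E2F1 cells and in CMV cells. At an unadjusted p under 0.05 there were 3 members in each, beside 1769 of all 15866 probe sets in E2F1 cells and 1050 in CMV cells. In E2F1 cells the members' median change was 0.05 (all probe sets -0.05), and in CMV cells -0.09 (all probe sets 0.02). The values with the smallest p were 0.72 ± 0.18 for Psme3ip1 and 0.75 ± 0.21 for Psmg4 in E2F1 cells. In CMV cells they were 0.68 ± 0.18 for Psmd10 (adjusted p = 0.661), with 1202 and 1509 with LY294002 against 869 and 803 without, and -0.62 ± 0.18 for Psmd5 (adjusted p = 0.698).

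Deprivation against serum called 0 of 38 in E2F1 cells, where 0.233% of all probe sets were called (0.151% higher and 0.0819% lower). In CMV cells it called 0 of 38, where 0.24% were called (0.176% higher and 0.063% lower). At an unadjusted p under 0.05 there were 9 members in E2F1 cells, beside 3106 of all 15866 probe sets. In CMV cells there were 6, beside 2217 of all probe sets. By value, 34 of 38 members lay below 0 in deprived CMV cells, among them all 13 core and all 7 base genes, with a median of -0.27 beside 0.06 for all probe sets. In deprived E2F1 cells 27 of 38 lay below 0, with a median of -0.18 beside -0.10. The lowest values in CMV cells were those of Psmd8 (-0.98 ± 0.20, adjusted p = 0.119, 1047 against 2093 and 2073) and Psmc3 (-0.90 ± 0.28, adjusted p = 0.237, 1198 against 1942 and 2588). The 3' to 5' difference was 0.76 on the deprived CMV array against 0.12 and 0.14 on the CMV arrays in serum, and its part in these values was not tested. These comparisons share the serum arrays with those of E2F1 and of LY294002.

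**Figure D4:**
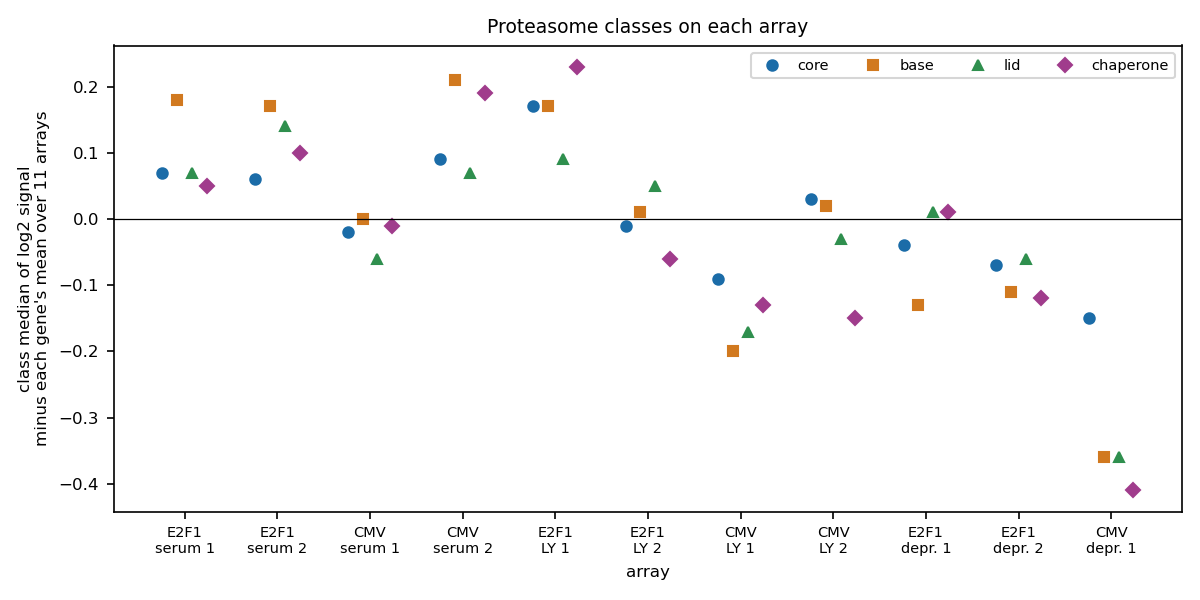
Class median, on each array, of the genes' log2 signal minus each gene's own mean over the 11 arrays, for core, base, lid and chaperone genes. The core stays between -0.15 and 0.17, and the base, lid and chaperone points are lowest on the single deprived CMV array (-0.36, -0.36 and -0.41).

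Core, base and lid genes had lower median spread across the 11 arrays than all probe sets, and chaperone genes had the same. The members were bright, with signals of 322 to 6393 against array medians of 173 to 208, whereas all probe sets include dim ones. The part of brightness in the spread was not tested. The SD of log2 signal had a median of 0.17 for core, 0.22 for base, 0.23 for lid and 0.36 for chaperone genes, against 0.36 for all probe sets. Psmg2 (0.51), Psmd8 (0.44), Psmg4 (0.43), Psmc3ip (0.43), Psmc3 (0.42), Psme3ip1 (0.40) and Psmd10 (0.39) lay above that median. The ratio of highest to lowest signal was 1.27 for Psma5, the lowest of the 38, and 3.11 for Psmd8, the highest. Among core genes it stayed at or below 1.64 except for Psmb4 (1.69) and Psmb2 (2.34).

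Related genes gave the following values in the average over media. Of 25 measured genes of ubiquitin handling and proteasome control, Faf1, a ubiquitin-binding adaptor (0.59 ± 0.09, adjusted p = 0.00565), and Ubqln1, a shuttle factor (0.49 ± 0.12, adjusted p = 0.0307), rose and 0 fell, with a list median of 0.08. These calls are 8% of the list, beside 16.5% of all probe sets. Nfe2l1, the factor that induces proteasome genes when degradation is inhibited, stood at -0.42 ± 0.15 (adjusted p = 0.106), with 527 to 817 on E2F1 arrays and 771 to 1105 on CMV arrays. The core maturation factor Pomp stood at 0.04 ± 0.12, and the lid subunit Sem1 at 0.26 ± 0.10 (adjusted p = 0.107). Of 39 cytosolic ribosomal protein genes, another large constitutive complex, 0 were called, beside 16.5% of all probe sets, and 3 lay above 0 (median -0.19). Above 0 lay 30 of 38 members (28 of 36 without Psmc3ip and Psme3ip1) and 7021 of all 15866 probe sets. Of the immune forms, Psmb9, which replaces Psmb6 in the core, rose (2.93 ± 0.24, adjusted p = 0.00084, 239 to 489 on E2F1 arrays against 3.76 to 78.0 on CMV arrays, the low end under the offset of 16), as did the activator subunit Psme1 (0.89 ± 0.14). Psmb8, which replaces Psmb5, stood at -0.30 ± 0.19, Psmb10, which replaces Psmb7, at -0.13 ± 0.20, and Psme2 at 0.01 ± 0.18.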

How the data were processed

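Per the labels' protocols, 6 µg of RNA from REF52 cells was labelled and hybridised to each of 11 Affymetrix rat arrays. The authors deposited signal intensities on a linear scale, scaled to a mean of 500 on every array after trimming 2% at each end; MAS5 and RMA are named in the submitters' processing notes, with versions and roles not given in the sources used here. No detection calls were used here.

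Of 15923 probe sets, 57 controls were left out and 15866 tested as log2(signal + 16), with no further scaling, no filter on dim probe sets, and 1 mean for each of the 6 groups, by limma 3.58.1 (lmFit, eBayes) in R 4.3.3. There were 5 residual and 2.88 prior degrees of freedom. The 10 comparisons were adjusted by Benjamini-Hochberg over all probe sets. Fold changes are on the log2(signal + 16) scale, errors are standard errors of the fit, and intervals are 95%. Levels of different probe sets are not compared, other than with array medians.

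Symbols come from the platform annotation; all 38 were found in RefSeq (GRCr8), and 0 changed. RefSeq names pseudogenes or like copies of 12 of the 38, whose contribution to the signal could not be separated. Psmb3 has 10 such copies and, of the called genes, Psmg4 has 3 and Psmd8 has 2. Classes follow textbook roles. Named with values are all called members, the 2 of each class with the smallest p in the average, members fixed by role, and the extremes; Psmb1, Psmb3, Psmb4, Psmc1, Psmd1, Psmd3, Psmd6, Psmd7 and Psmd11 complete the account. The members and lists were chosen with earlier results of these data known. On simulated data only the E2F1 average was tested, with planted changes larger than any called for a member in that average. The simulation does not show how well changes of the size called here are recovered.

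Alternatives were quantile normalization, median centring, offsets of 1 and 64, leaving out the dimmest 30%, array weights, trended and robust eBayes, a replicate block, the compared groups alone and each array left out. Chosen after seeing the data were fits without both second LY294002 arrays, without deprived arrays, and with a covariate for the 3' to 5' difference.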

Additional observations from a re-analysis of the deposited data

How the results depend on the processing

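The 11 calls named above kept their direction in all 233 refits, and kept the threshold in 170. Psmg2 and Psme3ip1 passed in each of the 21 refits of the average (adjusted p up to 0.035 and 0.0432), and Psmd8 and Psmd13 in 20. The average's count of 8 ran from 5 to 8 with single arrays left out, was 2 without deprived arrays, a fit with fewer arrays, and was 9 with offset 64 (adding Psmd7) and with the 3' to 5' covariate (adding Psmc5). Single media depended on the setting, and the cause was not tested except that the compared groups alone leave few arrays. In serum the count was 0, and 1 (Psmg2) with array weights. With LY294002 the count of 2 became 0 with median centring, array weights, the compared groups alone, without both second LY294002 arrays or with the 3' to 5' covariate, 1 with offset 1, 6 with offset 64, 4 without the dimmest 30% and 5 with trend and robust settings, and ran from 0 to 3 with single arrays left out. In deprivation the count of 1 became 0 with centring, offset 1, the replicate block or the compared groups alone, 2 with offset 64, without both second LY294002 arrays or with the covariate, and 3 with array weights, and ran from 0 to 2 with single arrays left out. The other 6 comparisons stayed at 0 in every setting run. The core median of 0.05 became 0.12 without both second LY294002 arrays and ran from 0.02 to 0.09 with single arrays left out, where the base median ran from 0.09 to 0.29 and the lid median from 0.16 to 0.26. Without deprived arrays the base median of 0.19 became 0.07 and the lid median of 0.21 became 0.14. The median of all probe sets for the deprivation minus serum difference was -0.13 as deposited and 0.01 after centring, the widest such shift of the 10 comparisons. Same-numbered arrays deviated together (correlation over 0.1) in 1 of 10 pairs of groups, with a highest correlation of 0.3. Whether the numbers pair the samples cannot be told from these correlations or the labels. The replicate block gave 7 calls in the average. Without the deprived CMV array, comparisons that use it could not be fitted.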
